A study of Mus musculus with 2 samples.

Results

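The 9 genes described here are those for the microglial surface proteins Csf1r, Cx3cr1, P2ry12 and Tmem119, the 3 chains of complement C1q (C1qa, C1qb and C1qc), the protease Ctss and the adaptor Tyrobp. They were chosen by name as microglial receptor and complement genes, and all 9 are among the 15474 genes counted. Their values come from single cells of the dentate gyrus of C57BL/6J mice aged 4 to 5 weeks, sequenced by SORT-seq, a plate-based method that sorts 1 cell to a well and tags each molecule with a random sequence (a unique molecular identifier, UMI), so that molecules rather than reads are counted. One plate held freshly dissociated cells pooled from 3 mice, sorted with a dead cell stain, and the other held cells pooled from 4 mice that were fixed in methanol (MeOH), stored for 3 weeks, rehydrated and sorted without that stain. Of the 64 fresh and 132 MeOH-fixed cells that passed the authors' filters, 10 and 7 were annotated as microglia, 17 of 196 in all. There was 1 library per condition, so that no difference has a replicate check, no test was made, and the effect of fixation cannot be told apart from that of the plate, the mice or the stain.

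Microglia are the resident macrophages of the brain parenchyma. Csf1r is the receptor tyrosine kinase on whose signal they depend for survival, Cx3cr1 is the receptor for the neuronal chemokine Cx3cl1, and P2ry12 is a G protein-coupled receptor for ADP that steers their processes towards released nucleotides. Tmem119 is a transmembrane protein used to tell microglia from other macrophages. C1q is assembled from its A, B and C chains and starts the classical complement pathway, which in the brain is known for tagging synapses. Ctss is the lysosomal cysteine protease cathepsin S, and Tyrobp (DAP12) is the adaptor through which Trem2 and other receptors signal.

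Together the 9 genes made up a similar share of the RNA of fresh and MeOH-fixed microglia, and they were close to absent elsewhere. Fresh microglia held 1304 UMIs of these genes among 46365 UMIs, or 28125 CPM (UMIs of the genes scaled to a fixed total of UMIs, exact 95% Poisson interval 26619 to 29694). MeOH-fixed microglia held 414 among 14707 UMIs, or 28150 CPM (25503 to 30997). All intervals given here cover counting error only. The cells of other identities held 31 UMIs in 54 fresh cells (63.6 CPM, 43.2 to 90.2) and 53 UMIs in 125 MeOH-fixed cells (74.2 CPM, 55.6 to 97.1). As a share of the UMIs of a single cell, the 9 genes took 1.74 to 3.61% in the fresh microglia (median 2.54%) and 1.99 to 3.84% in the MeOH-fixed ones (median 2.30%), so that the plates overlapped over most of their range. The highest share in any other cell was 0.103% on the fresh and 0.107% on the MeOH-fixed plate. The lowest microglia of each plate held 26 and 28 UMIs of the 9 genes, against at most 3 in any other cell.

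**Figure D1:**
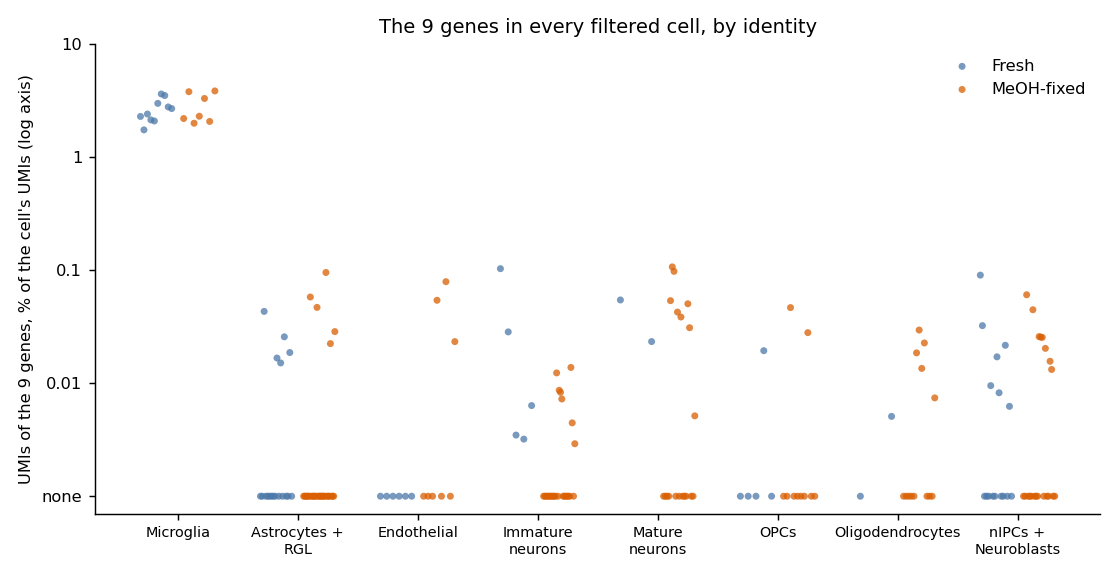
The share of each filtered cell's UMIs that came from the 9 genes (vertical axis, percent, log scale, with cells that held none placed at the mark none), by annotated identity, with 1 point per cell and fresh and MeOH-fixed cells in different colours. Every microglia lies at or above 1.74%, and no other cell lies above 0.107%.

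Each of the 9 genes had a higher level in microglia than in the other cells of the same plate. The identities were annotated by the authors from clusters of these same counts, with Csf1r and Cx3cr1 among the markers, so the difference between microglia and other cells is a description. On the fresh plate the level of the summed genes was 443-fold higher in microglia (310 to 654), and all 9 genes exceeded a 10-fold difference, as did 2.78% of the 5321 genes with at least 20 UMIs. On the MeOH-fixed plate the difference was 379-fold (285 to 515). Of the 7 members with at least 20 UMIs there all 7 exceeded 10-fold, as did 1.40% of 6586 genes, while Tmem119 and Tyrobp fell short of that number of UMIs. The members reached 20 UMIs mainly through the microglia, so that a member with few UMIs elsewhere had to exceed 10-fold once it was counted, and nothing is read from these counts. For Tmem119, none of the 179 cells of other identities held a UMI among 1202068, which allows a level of up to 2.50 CPM. With 66 and 12 UMIs in fresh and MeOH-fixed microglia, it was also 1 of the least abundant members, so the lack of traces does not set it apart. Its level was at least 231-fold higher in microglia on the fresh plate and at least 194-fold higher on the MeOH-fixed plate, taking 3 counts in the other cells of the plate as the limit. C1qc and Tyrobp had no UMI in other cells of the fresh plate either, with bounds of at least 533-fold and at least 172-fold. The member with the smallest difference on the fresh plate was Cx3cr1, at 143-fold (72.7 to 319), and the smallest ratio on the MeOH-fixed plate was that of C1qb, at 194-fold (116 to 340).

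The positions of the genes on GRCm38 were taken from GENCODE vM21. C1qb (chr4:136880129-136886187), C1qc (chr4:136889804-136893065) and C1qa (chr4:136895917-136898803) lie side by side on the minus strand within 18.7 kb, with no other annotated gene between them. Tmem119 (chr5:113793729-113800516, minus strand) and Tyrobp (chr7:30413760-30417585, plus strand) overlap no other gene. Ctss (chr3:95526786-95556403, plus strand) holds a processed pseudogene in an intron. P2ry12 (chr3:59216272-59262871, minus strand) overlaps Med12l on the opposite strand, Csf1r overlaps Hmgxb3 on the opposite strand, and the gene model of Cx3cr1 (chr9:119901616-120069879, minus strand) spans 9 other genes. How the strand entered the counting is not given in the sources used here, so that reads of such neighbours could enter the counts of these 3 genes.

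Because the 9 genes share 1 cell type, the sequences at their starts are of interest. The RefSeq promoter table (GRCm38.p6, 250 bases before to 50 after the start) held 5 of the 9 members, Cx3cr1, P2ry12, C1qb, C1qc and Ctss. The motif searched was AGGAAGT on both strands, and it was chosen after these promoters had been seen. It contains GGAA, the core bound by transcription factors of the ETS family, to which the myeloid factor PU.1 belongs. AGGAAGT occurs in 9.35% of the 32851 promoters of that table and in 4 of the 5 found here, not in that of Cx3cr1. The core GGAA alone does stand in the Cx3cr1 promoter, so these are not counts of ETS cores. The 4 promoters with AGGAAGT are printed 5′ to 3′ on the strand of the gene, with the motif or its reverse complement in capitals.
P2ry12 (chr3:59262936-59263235, minus strand): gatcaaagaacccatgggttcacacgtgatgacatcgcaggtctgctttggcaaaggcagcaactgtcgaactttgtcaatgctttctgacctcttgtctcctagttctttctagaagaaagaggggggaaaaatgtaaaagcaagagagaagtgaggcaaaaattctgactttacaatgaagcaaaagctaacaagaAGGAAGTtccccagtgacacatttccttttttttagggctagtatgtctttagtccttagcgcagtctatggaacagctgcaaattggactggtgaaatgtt
C1qb (chr4:136886151-136886450, minus strand): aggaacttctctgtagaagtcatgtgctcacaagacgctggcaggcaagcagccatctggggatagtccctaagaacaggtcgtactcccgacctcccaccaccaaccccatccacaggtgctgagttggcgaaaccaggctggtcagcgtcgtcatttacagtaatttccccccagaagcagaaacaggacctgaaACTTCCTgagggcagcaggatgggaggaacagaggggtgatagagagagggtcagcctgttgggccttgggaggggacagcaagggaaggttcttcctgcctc
C1qc (chr4:136892865-136893164, minus strand): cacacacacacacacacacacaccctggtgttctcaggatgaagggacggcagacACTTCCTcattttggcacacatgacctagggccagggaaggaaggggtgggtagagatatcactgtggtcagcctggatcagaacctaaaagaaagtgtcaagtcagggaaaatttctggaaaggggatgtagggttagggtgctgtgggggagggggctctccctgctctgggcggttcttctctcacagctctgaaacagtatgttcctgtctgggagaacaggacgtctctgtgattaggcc
Ctss (chr3:95526536-95526835, plus strand): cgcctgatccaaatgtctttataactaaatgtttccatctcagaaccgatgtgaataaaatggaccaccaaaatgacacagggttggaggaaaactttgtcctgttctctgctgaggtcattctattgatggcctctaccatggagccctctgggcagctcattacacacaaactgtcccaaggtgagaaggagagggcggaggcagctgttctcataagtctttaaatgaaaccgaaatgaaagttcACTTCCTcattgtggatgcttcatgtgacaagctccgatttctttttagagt
The match begins 52 bases before the start in P2ry12, 53 bases before it in C1qb, 195 bases before it in C1qc and 2 bases before it in Ctss. The longer motif GAGGAAGT, which contains the first, was found in 2 of the 5, C1qc and Ctss, and in 3.20% of all promoters in the table. These matches are letters in a window and were not tested for binding.

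The question of the study was how fixation in MeOH changes single cell profiles, and in microglia it can be asked of each member. None of the 9 genes differed 2-fold between the plates in either direction. Of the 460 genes with at least 20 UMIs over the microglia, 29.3% did (10.7% higher and 18.7% lower in MeOH-fixed microglia, 49 and 86 genes). Of the 145 genes with at least 50 UMIs, a number that all 9 members reached, 20% did. With only 9 members, nothing is read from their lower share. The balance of higher and lower genes turned with the limit on UMIs. It was 16 higher and 13 lower with at least 50 UMIs, and 1057 higher and 351 lower among genes with any count on both plates. A single UMI is 68.0 CPM in MeOH-fixed and 21.6 CPM in fresh microglia. A gene with 1 UMI on each plate therefore counts as higher by depth alone, and nothing is read from the last balance. The exact intervals of the 2 levels were apart for 0 of the 9 genes, against 13.9% of all genes tested. The log2 ratio of CPM, MeOH-fixed over fresh, was 0.00 for the summed members (-0.16 to 0.16), with a median over the members of 0.03 beside -0.06 over all genes tested. The absolute number of UMIs did differ. A microglia held a mean of 130.4 UMIs of the 9 genes when fresh and 59.1 when MeOH-fixed, a log2 ratio of -1.14, which was also the ratio for all UMIs of a microglia (means of 4637 and 2101). Per spike-in count the log2 ratio was -0.69 for both. Oligodendrocyte markers were higher in the microglia of the MeOH-fixed plate, with 5 UMIs in fresh (108 CPM, 35.0 to 252) and 12 in MeOH-fixed microglia (816 CPM, 422 to 1425). They came from 2 and 3 of the 4 markers, in 5 of 10 fresh cells with at most 1 UMI and in 4 of 7 MeOH-fixed cells with up to 5, and their part in the ratios was not tested.

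**Figure D2:**
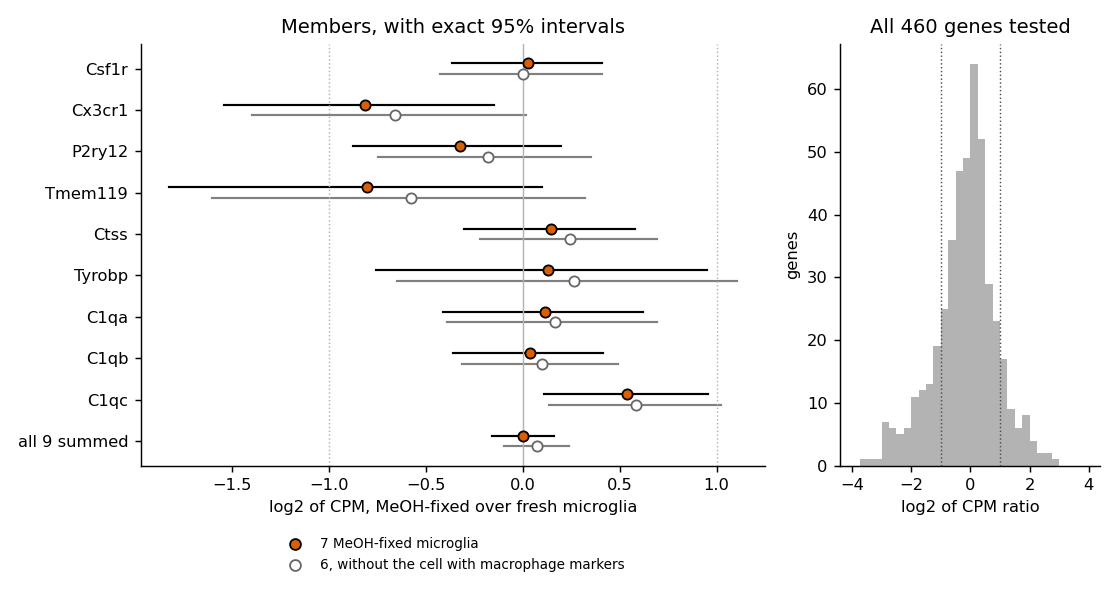
Left, the log2 ratio of CPM in MeOH-fixed over fresh microglia for each gene and for the 9 summed, with exact 95% intervals from counting error, for all 7 MeOH-fixed microglia (filled) and for 6 of them without the cell with macrophage markers (open). Right, the same ratio for the genes tested with a UMI on both plates (456 of 460), in which dotted lines mark 2-fold, a limit that no point on the left passes.

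Among the receptors, Csf1r had 5004 CPM in fresh (4381 to 5691) and 5100 CPM in MeOH-fixed microglia (4011 to 6392), a log2 ratio of 0.03 (-0.37 to 0.41). It was the receptor found in every microglia, with 2 to 58 UMIs in the fresh cells (median 20) and 2 to 26 in the MeOH-fixed cells (median 9). Cx3cr1 was lower on the MeOH-fixed plate, with 1496 CPM (937 to 2265) against 2631 CPM (2185 to 3142), and a log2 ratio of -0.81 (-1.54 to -0.15). Its level ran from 0 to 5044 CPM over the fresh cells (median 2195) and from 0 to 2920 CPM over the MeOH-fixed cells (median 1802), and the plates overlapped. A single fresh microglia held 34 of its 122 UMIs, and without that cell the log2 ratio was -0.57. P2ry12 had 3235 CPM (2738 to 3796) and 2584 CPM (1828 to 3546), a log2 ratio of -0.32 (-0.88 to 0.20). It was found in all 10 fresh microglia, with 2 to 30 UMIs (median 15.5), and in 6 of the 7 MeOH-fixed ones, with 0 to 11 UMIs (median 4).

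Tmem119 was detected in the fewest MeOH-fixed microglia of the 9 genes. It had a UMI in 8 of 10 fresh and 3 of 7 MeOH-fixed cells, with 66 and 12 UMIs in all, or 1423 CPM (1101 to 1811) and 816 CPM (422 to 1425). Its log2 ratio of -0.80 had an interval of -1.83 to 0.10, which includes no difference. The levels of single cells ran from 0 to 3070 CPM on the fresh plate (median 1188) and from 0 to 2347 CPM on the MeOH-fixed plate (median 0), and the 3 MeOH-fixed cells in which it was found lay within the range of the fresh cells.

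The 3 chains of C1q were found in every MeOH-fixed microglia, and in every fresh one apart from a single cell without C1qc. C1qa had 2761 CPM (2303 to 3282) in fresh and 2992 CPM (2174 to 4016) in MeOH-fixed cells, and C1qb had 5047 CPM (4421 to 5737) and 5168 CPM (4071 to 6468), with log2 ratios of 0.12 (-0.41 to 0.62) and 0.03 (-0.36 to 0.41). C1qb was the steadiest of the members, between 2917 and 6904 CPM in the fresh cells (median 4888) and between 3793 and 6782 CPM in the MeOH-fixed cells (median 4695). C1qc was higher on the MeOH-fixed plate, with 4760 CPM (3710 to 6014) against 3278 CPM (2778 to 3843) and a log2 ratio of 0.54 (0.11 to 0.96). Its range was 0 to 6583 CPM in the fresh cells (median 3076) and 1874 to 12012 CPM in the MeOH-fixed cells (median 3793), and all but the highest MeOH-fixed cell lay within the range of the fresh ones. That cell held 20 of the 70 UMIs, and without it the log2 ratio was 0.23.

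Ctss had 3688 CPM (3156 to 4284) in fresh and 4080 CPM (3113 to 5251) in MeOH-fixed microglia, a log2 ratio of 0.15 (-0.30 to 0.58), and was found in all 17 cells. The fresh cells ran from 669 to 8112 CPM (median 3316) and the MeOH-fixed cells, within that range, from 2343 to 5652 CPM (median 4204). Tyrobp had 1057 CPM (782 to 1397) and 1156 CPM (673 to 1851), a log2 ratio of 0.13 (-0.76 to 0.95). It rested on few molecules, 49 and 17 UMIs. Of the 17 UMIs on the MeOH-fixed plate, 14 came from 2 cells with 6 and 8, and without the cell with 8 the log2 ratio was -0.52. Over the 9 genes the interval of the ratio was clear of 1 for 2, Cx3cr1 and C1qc, as it was for 23.7% of all genes tested.

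**Figure D3:**
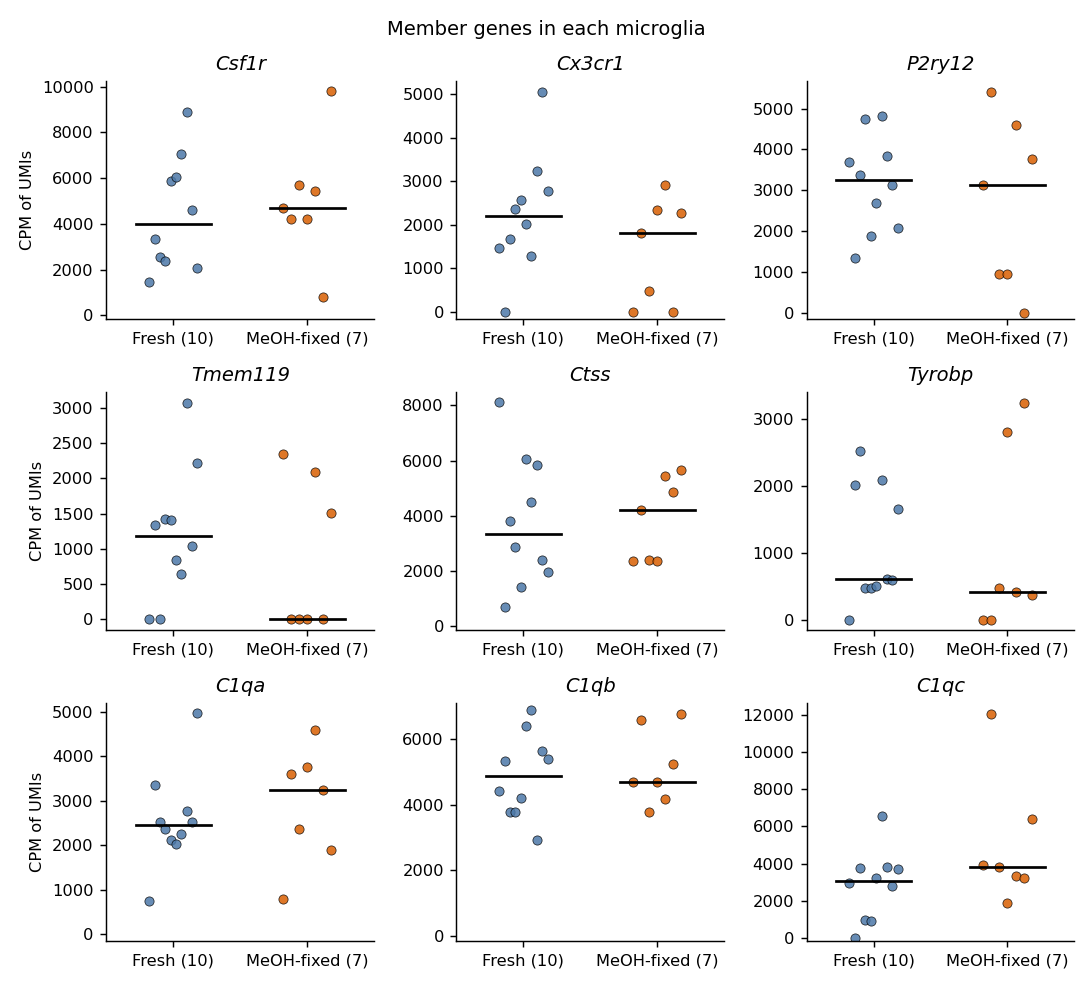
The level of each gene in each microglia, in CPM of the cell's own UMIs, with 1 point per cell, ordered within a plate by total UMIs, and a line at the median. Each panel has its own scale, and the fresh and MeOH-fixed cells overlap in all 9 panels.

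Detection was compared over pairs of a gene and a cell. A UMI was found in 94.4% of the 90 pairs of a gene and a fresh microglia and in 85.7% of the 63 pairs of a gene and a MeOH-fixed microglia. The median depth of these cells was 5102 and 2134 UMIs. When each cell was thinned to 800 UMIs, the expected shares were 80.1% and 75.9%. At 1500 UMIs, which 8 fresh and 6 MeOH-fixed microglia reached, they were 93.2% and 83.7%. In the cells of other identities, which were deeper (medians of 6696 and 3797 UMIs), 21 of 54 fresh and 38 of 125 MeOH-fixed cells held any UMI of the 9 genes.

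In the summed UMIs the balance between the genes differed a little between the plates. Csf1r, Cx3cr1, P2ry12 and Tmem119 together gave 43.7% of the members' UMIs in fresh microglia (exact Clopper-Pearson interval 41.0 to 46.5%) and 35.5% in MeOH-fixed microglia (30.9 to 40.3%). The 3 C1q chains gave 39.4% (36.8 to 42.1%) and 45.9% (41.0 to 50.8%). By cell the receptors and Tmem119 took 29.0 to 56.2% on the fresh plate (median 38.6%) and 3.92 to 46.4% on the MeOH-fixed plate (median 35.7%). The value of 3.92% came from a single cell, with 2 of its 51 member UMIs. Of the UMIs of MeOH-fixed microglia, that cell gave 2 of the 147 of the receptors and Tmem119. It gave 29 of the 190 of C1q and 51 of the 414 of all members, so the summed difference rested in part on it. The summed shares without that cell were not computed. Among the UMIs of C1q, the A, B and C chains made up 24.9, 45.5 and 29.6% in fresh and 23.2, 40.0 and 36.8% in MeOH-fixed microglia, with overlapping intervals for each chain (25.7 to 33.7% and 30.0 to 44.1% for the C chain).

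Single MeOH-fixed microglia departed from the rest in genes outside the set, and they are numbered here by their total of UMIs. MeOH-fixed microglia 3 (2109 UMIs) held 7 of the 9 measured markers of perivascular macrophages and monocytes, with 30 UMIs, whereas no other microglia held more than 1 of them. Mrc1, the mannose receptor of border macrophages, had 11 UMIs in this cell and none in the other 16. The scavenger receptor genes Stab1 and Cd163 had 10 and 2 UMIs, and the chemokine gene Pf4 had 3. Of the members it held 12 UMIs of Csf1r, 2 of P2ry12, 1 of Cx3cr1 and none of Tmem119, and for the last 3 its own depth would give 6.65, 5.11 and 2.79 UMIs, in the order of P2ry12, Cx3cr1 and Tmem119, at the pooled level of the other microglia. Most UMIs of that pool were fresh, here and for MeOH-fixed microglia 6 below. MeOH-fixed microglia 4, of similar depth (2134 UMIs), also held 2 UMIs of P2ry12 and none of Tmem119, where 6.73 and 2.82 would be given. It did hold 5 of Cx3cr1, where 5.03 would be given. MeOH-fixed microglia 3 had 9 UMIs of the other homeostatic microglia genes (4267 CPM), against 14012 CPM or more in every other microglia. These markers go against its annotation in part, and the results were computed with and without it. Without this cell the log2 ratio of the summed members was 0.07 (-0.10 to 0.24), and that of Cx3cr1 was -0.66 (-1.40 to 0.02), an interval that includes no difference, while that of C1qc was 0.59 (0.14 to 1.02).

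MeOH-fixed microglia 6 (2470 UMIs) held no UMI of Cx3cr1, P2ry12 or Tmem119, where the pooled level of the other microglia would give 6.07, 7.92 and 3.29. It had 2 UMIs of Csf1r, where 12.9 would be given. Its C1q, Ctss and Tyrobp were not low. It held 29 UMIs of C1q, or 56.9% of its member UMIs, 12 of Ctss and 8 of Tyrobp. The same cell held 44 UMIs of the chemokine gene Ccl4, all that were found on the MeOH-fixed plate, and 34 of the 37 UMIs of Ccl3. Genes known to be induced in microglia during dissociation took 49393 CPM in it, against a median of 16270 CPM on the MeOH-fixed plate and 18349 CPM on the fresh plate. The highest fresh cell had 22874 CPM, and fresh microglia 2 had none of their UMIs. Only 3 UMIs of the macrophage markers were found in this cell, all of Lyz2.

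**Figure D4:**
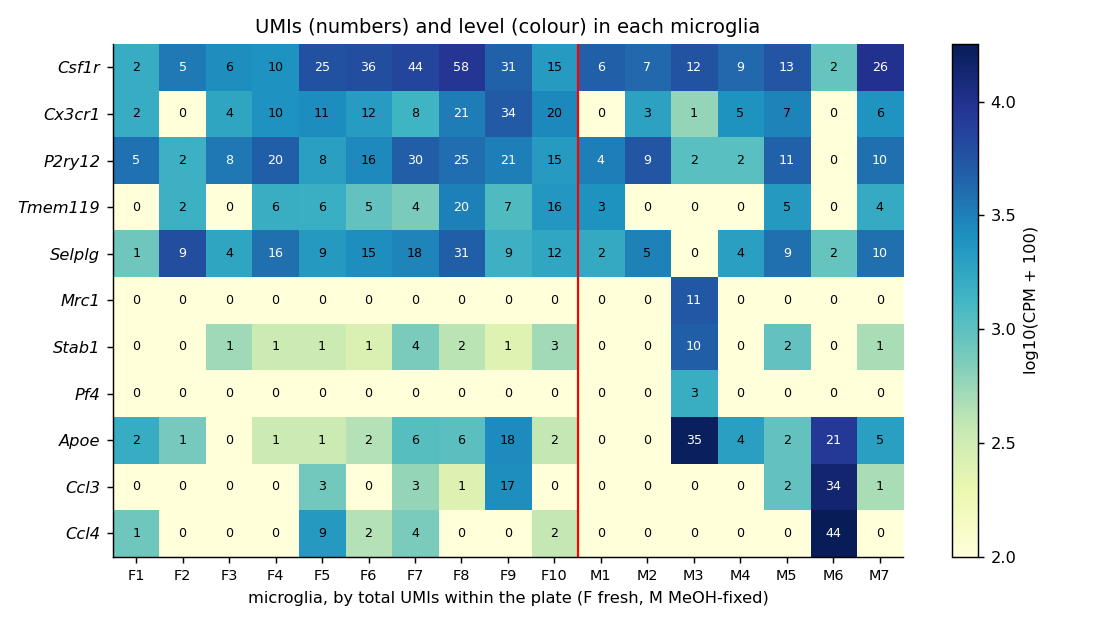
UMIs (numbers) and levels (colour, log10 of CPM + 100) of 4 members and 7 other genes in each of the 10 fresh (F) and 7 MeOH-fixed (M) microglia, ordered by total UMIs within a plate. M3 alone holds Mrc1 and Pf4, and M6 holds 44 UMIs of Ccl4 and none of Cx3cr1, P2ry12 or Tmem119.

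The genes that work with the members were looked at in the same cells. Cx3cl1, the ligand of Cx3cr1, had no UMI in any microglia and 191 UMIs in the cells of other identities. Of the 2 ligands of Csf1r, Il34 had 0 and 5 UMIs, and Csf1 had 3 UMIs in microglia, all in MeOH-fixed microglia 6, and 43 in other cells. The other cells held 95.2% of all UMIs, and per UMI Csf1 had 49.1 CPM in microglia and 35.8 CPM in other cells. Il34 had 4.16 CPM and Cx3cl1 159 CPM in other cells, where a count of 0 in microglia allows up to 49.1 CPM, so that a difference was not detectable for Il34.

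Of 10 genes listed for partners of Tyrobp and for related signalling, 6 were tested. Of these, 1 was at least 2-fold higher and 3 were at least 2-fold lower on the MeOH-fixed plate. The median log2 ratio of the 6 was -1.11 beside -0.06 over all genes tested. The list is not a single pathway, since Fcer1g, the higher gene, encodes an adaptor beside Tyrobp and not below it. Fcer1g, the gamma chain of Fc receptors, had 755 CPM in fresh and 2108 CPM in MeOH-fixed microglia, a log2 ratio of 1.48 (0.74 to 2.22), and was found in 9 of 10 and 7 of 7 cells. Trem2, the lipid receptor that signals through Tyrobp, had 1078 and 340 CPM, a log2 ratio of -1.67 (-3.35 to -0.35), and was found in 10 of 10 and 4 of 7 cells. The phosphatase genes Inpp5d and Ptpn6 were lower with 4 and 2 UMIs on the MeOH-fixed plate and intervals that include no difference. Of the myeloid transcription factors, 6 of 8 were tested and 4 were lower, among them Sall1, a factor that keeps microglial identity, with 32 UMIs in fresh and 1 UMI in MeOH-fixed microglia, a log2 ratio of -3.34 (-8.69 to -0.76). Irf8 and Cebpa, with 2 UMIs each on the MeOH-fixed plate, had intervals that include no difference.

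Other complement genes together had 126 UMIs in fresh and 30 in MeOH-fixed microglia (2718 and 2040 CPM). Of 22 listed, 16 were among the genes counted and 3 were tested. C3ar1, the receptor for C3a, was lower (561 and 272 CPM, log2 ratio -1.04, -3.02 to 0.48). That difference was no longer 2-fold without MeOH-fixed microglia 3. Itgam, a chain of complement receptor 3, had a log2 ratio of -0.70 (-2.01 to 0.41). Among receptors related to P2ry12, P2ry13 was higher with 1100 and 2244 CPM, a log2 ratio of 1.03 (0.35 to 1.69), while Gpr34 had a log2 ratio of 0.21 (-0.75 to 1.09). Entpd1, the ectonucleotidase that breaks down ATP and ADP, had 24 UMIs in fresh and none in MeOH-fixed microglia, at least 2.54-fold lower with 3 counts as the limit.

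The lysosomal genes to which Ctss belongs by function had 2096 UMIs in fresh and 811 in MeOH-fixed microglia. Cst3, which encodes the secreted protease inhibitor cystatin C, held 1071 and 418 of these. Of its 15 genes, all tested, 3 were higher and none lower, with a median log2 ratio of 0.18. Cd68, a lysosomal membrane protein of macrophages, had a log2 ratio of 1.76 (0.60 to 2.92), Hexa one of 1.33 (0.11 to 2.53) and Grn, the gene of progranulin, one of 1.17 (0.56 to 1.76). Of the cathepsin genes, Ctsb had 1790 and 3400 CPM, a log2 ratio of 0.93 (0.39 to 1.45), and Ctsd had a log2 ratio of 0.00 (-0.43 to 0.42). Of 25 other homeostatic microglia genes, 22 were tested, with 3 higher (P2ry13, Fcgr3 and Fcer1g), 3 lower (Sall1, Trem2 and Csf3r) and a median log2 ratio of -0.02. Without MeOH-fixed microglia 3, 3 were higher and 2 lower.

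Outside the microglia, traces of the members were spread thinly over identities. Of the fresh cells with a trace, 12 held 1 UMI, 8 held 2 and 1 held 3. On the MeOH-fixed plate 27 held 1, 7 held 2 and 4 held 3. The log2 ratio of the trace level, MeOH-fixed over fresh, was 0.22 (-0.44 to 0.91). On the fresh plate the level in mature neurons was the highest, at 327 CPM (89.0 to 836), but from 4 UMIs in 2 cells, and astrocytes and radial glia-like cells (63.9 CPM), nIPCs and neuroblasts (62.6 CPM), immature neurons (62.4 CPM), oligodendrocytes (41.1 CPM) and OPCs (39.7 CPM) followed with overlapping intervals. The 6 fresh endothelial cells held none among 19405 UMIs, which allows up to 155 CPM. On the MeOH-fixed plate the order was endothelial cells (243 CPM, 78.9 to 567), mature neurons (152 CPM, 80.8 to 259), astrocytes and radial glia-like cells (99.1 CPM), nIPCs and neuroblasts (90.8 CPM), oligodendrocytes (77.2 CPM), OPCs (64.3 CPM) and immature neurons (29.8 CPM, 13.6 to 56.6). The interval of the last lay below those of the first 2, while the other neighbours in this order overlapped. The immature neurons were also the deepest of these cells, with a median of 11563 UMIs against 2554 in the mature neurons.

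Whether the traces are background or expression was not tested. Their balance differed from that in microglia for some genes. C1qb gave 9 of the 10 trace UMIs of C1q on the fresh plate (90.0%, 55.5 to 99.7%) and 19 of 28 on the MeOH-fixed plate (67.9%, 47.6 to 84.1%), against 45.5% (41.2 to 49.9%) and 40.0% (33.0 to 47.3%) of the C1q UMIs in microglia. Cx3cr1 gave 9 of 31 traces on the fresh plate (29.0%, 14.2 to 48.0%), where it gave 9.36% (7.83 to 11.1%) of the UMIs of the members in microglia, and 4 of 53 on the MeOH-fixed plate. One MeOH-fixed endothelial cell held 3 UMIs of Ctss and no other member. For each 100 member UMIs in its microglia, the fresh plate had 2.38 trace UMIs and the MeOH-fixed plate 12.8, with 54 and 125 other cells.

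**Figure D5:**
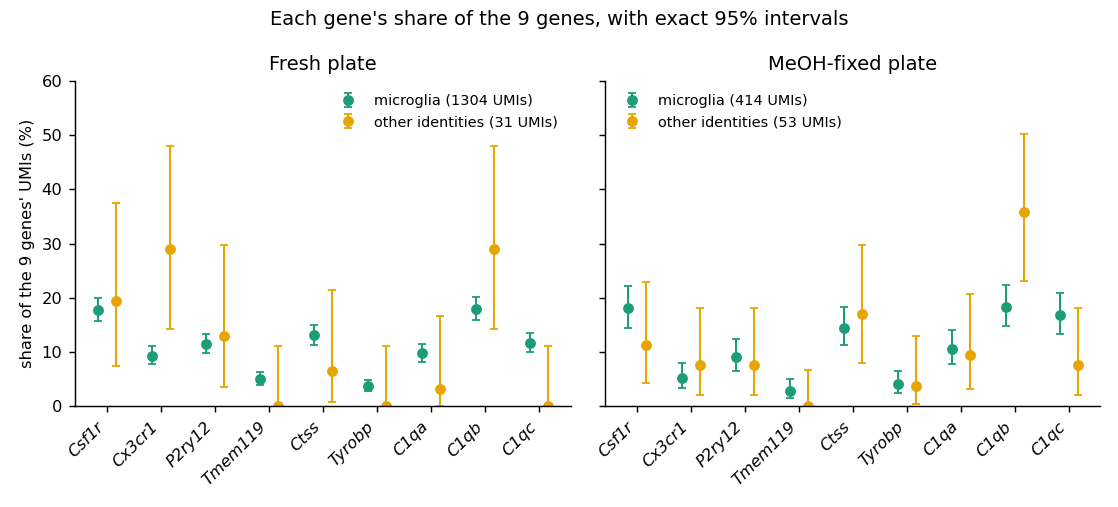
The share of each gene among the UMIs of all 9 genes (percent), in microglia and in the cells of other identities of the same plate, with exact 95% intervals. The points of the 2 sources differ most for C1qb on the MeOH-fixed plate and for Cx3cr1 on the fresh plate.

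Barcodes that failed the filters held more of these genes per UMI than the filtered cells of other identities. Each plate had 8 wells without a cell, whose positions were not used here, so that they are counted among the failed barcodes. The 320 failed barcodes of the fresh plate had 122 member UMIs (870 CPM, 723 to 1039) and the 252 of the MeOH-fixed plate had 101 (1207 CPM, 983 to 1467). On each plate 3 barcodes with 10 or more member UMIs held 48.4 and 61.4% of these, with 616 to 1346 UMIs and 267 to 500 genes, below the limit of more than 500 genes. The richest fresh one had 34 member UMIs among 712 (4.78%), 13 of them of C1qb, and the richest MeOH-fixed one had 24 among 949 (2.53%). In the remaining failed barcodes the level was 458 and 480 CPM.

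The genes most like the members were found from their levels over 16 values, the 8 identities on each plate. Of the 136 genes with at least 50 UMIs in microglia that are not members (145 with the 9 members), Mpeg1, Gpr34, Ccl3, Trem2 and Fcgr3 had the highest correlation of log2(CPM + 1) with the summed members (Pearson's r of 0.858 to 0.840). This is a description over values that share libraries and depth, and most of it is the contrast of microglia with the rest. The choice of these 5 genes depended on the measure, since Spearman's rho kept 2 of them, a pseudocount of 10 kept 3 and a limit of 20 UMIs kept 1.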

How the data were processed

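Fresh and MeOH-fixed single cells were sequenced by SORT-seq on 1 plate each, with 384 barcodes a plate. Reads were aligned by the authors to GRCm38 using STAR, those without a unique place were dropped and copies with the same UMI were merged. The values deposited by the authors are expected counts, that is, UMI numbers corrected for chance reuse of the 4096 possible UMIs. In R 4.2.0 with Seurat 4.1.0 the authors retained barcodes that had from 800 to 35000 transcripts, over 500 genes, over 500 counts of spike-ins and over 1.2 transcripts per gene, and deposited cell identities, spike-in counts and the percent of mitochondrial counts of each cell. Barcode metadata from before the filtering were not used here.

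The adjustment was inverted, and every value came out as a whole UMI number (largest distance 3.64e-12). UMIs were summed over cells of an identity and plate and scaled to CPM. The filtered cells held 534122 fresh and 729018 MeOH-fixed UMIs. Sums have exact Poisson intervals, shares exact Clopper-Pearson intervals and ratios the exact binomial interval given the sum of both counts, all at 95%. For a count of 0, 3 counts were taken as the limit. A gene was tested, in the sense of entering a count of genes past a limit, with at least 20 UMIs in the cells compared. Thinned shares are exact expectations. No SD or p-value over cells was computed, because cells are not replicates. Doublets were not called. No barcode number was used by microglia of both plates.

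The members and all lists of genes were chosen with earlier results of these data known. Some genes of these lists are not reported here. Named are the members, genes of these lists, the 5 genes most like the members and the 3 highest and 3 lowest ratios among genes with at least 50 UMIs over the microglia. Alternatives numbered 29, and 6 more were added after the data were seen. All steps were written in Python 3.11.15 (pandas 2.3.3, SciPy 1.17.1, numpy 2.4.6, with figures in matplotlib 3.10.9). The ratios were tested on simulated counts with counting error only, so the spread between cells was not part of that test.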

Additional observations from a re-analysis of the deposited data

How the results depend on the processing

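The log2 ratio of the summed members between the plates stayed within its interval under each alternative tried, from -0.13 (without the deepest microglia of each plate) to 0.09 (equal weight per cell), and ran from -0.12 to 0.08 as each microglia was left out in turn. No member passed 2-fold with all cells, but Tmem119 did without MeOH-fixed microglia 1, 5 or 7 (log2 ratios of -1.09, -1.32 and -1.10) and Cx3cr1 without MeOH-fixed microglia 5 (-1.11), and 2 members, Cx3cr1 and Tmem119, passed a limit of 1.5-fold. Of 81 recomputed values of single members, 3 left their interval, namely C1qc (0.06) and Tyrobp (-0.81) thinned to 800 UMIs and Csf1r without the deepest microglia (-0.45). The expected counts barely change the ratios. Dropping mitochondrial genes or using other size factors shifts all members by the same small amount. Those values could hardly leave their intervals, so little is read from that count. The number of genes past 2-fold, 135 of 460, depended on the limits and on depth. It was 458 of 1093 with at least 10 UMIs (129 higher and 329 lower), 29 of 145 with at least 50 (16 and 13), 1408 of 3052 with any count on both plates (1057 and 351, beside 49 and 86 of the 135), 231 after thinning to 800 UMIs, and 228 past 1.5-fold. With any count on both plates, a gene with 1 UMI on each counts as higher by depth alone. The genes at least 10-fold higher in microglia, 148 on the fresh and 92 on the MeOH-fixed plate, were 48 and 22 with at least 50 UMIs and 283 and 202 with at least 10. With equal weight per cell the log2 ratio of microglia to other cells was 8.0 in place of 8.79 on the fresh plate and 8.08 in place of 8.57 on the MeOH-fixed plate. Thinning to 800 UMIs lowered the share of detected pairs on the fresh plate to 80.1%. Per member UMI in the microglia of the plate, the log2 ratio of the traces was 2.43 in place of 0.22, a measure that also divides by how many microglia were sequenced. With a limit of 20 member UMIs, 1 fresh barcode remained among those that failed. Of the 5 genes most like the members, 2, 3 and 1 remained under the alternatives named with them. The cause of these changes was not tested beyond what each alternative changes by construction. Of 135 recomputed values, none reversed a called direction. No member had a called direction between the plates, so for those ratios this could not fail, and nothing is read from it. The sign of the ratio did change as each microglia was left out in turn. It changed in 10 cases for the summed members, 6 for Csf1r, 4 for C1qb, 2 for Tyrobp and 1 for C1qa. No paired analysis was possible because the conditions share only the replicate number 1. Low counts limit the precision, as for Tmem119 and Tyrobp with 12 and 17 UMIs on the MeOH-fixed plate and for Sall1, Irf8, Cebpa, Inpp5d and Ptpn6 with 1 to 4.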

Other observations

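Among the 145 genes with at least 50 UMIs over the microglia, the 3 highest ratios of MeOH-fixed to fresh belonged to secreted proteins. Ccl4 had a log2 ratio of 2.95 (2.13 to 3.82), with all 44 UMIs of the MeOH-fixed plate in 1 cell, and Ccl3 had 2.28 (1.50 to 3.09), with 34 of 37 in the same cell. Apoe, the apolipoprotein of glial cells and macrophages, had 2.44 (1.85 to 3.05), from 841 to 4556 CPM. Its 67 UMIs on the MeOH-fixed plate included 35 in MeOH-fixed microglia 3, which held macrophage markers, and 21 in MeOH-fixed microglia 6, and without the former the log2 ratio was 1.59 (0.87 to 2.31). The 3 lowest ratios belonged to the immediate early gene Egr1 (log2 ratio -2.98, -4.62 to -1.71), the nuclear RNA Malat1 (-2.82, -3.51 to -2.21) and Gm10785 (-2.34, -4.67 to -0.71).

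Genes known to be induced during dissociation did not move as 1 group. Of 13 tested, 3 were higher on the MeOH-fixed plate (Fos, Ccl3 and Ccl4) and 3 lower (Jun, Egr1 and Atf3), and their list had summed levels of 17513 CPM in fresh (16329 to 18760) and 18019 CPM in MeOH-fixed microglia (15914 to 20324), a log2 ratio of 0.04 (-0.16 to 0.24). MeOH-fixed microglia 6 held 122 of the 265 UMIs on its plate. Without this cell, an alternative added after the data were seen, the level was 11686 CPM (9849 to 13766) and the log2 ratio -0.58 (-0.85 to -0.33). Without MeOH-fixed microglia 3, which held 1 UMI of these genes, the level was 20956 CPM (18504 to 23642) and the log2 ratio 0.26. The direction thus depended on which cell was left out. Fos and Egr1, both immediate early genes, had log2 ratios of 1.46 (0.68 to 2.24) and -2.98. Of 11 genes known from disease-associated microglia, Apoe and Cd9 were tested, and Cd9 had a log2 ratio of 0.76 (-0.80 to 2.19). The genes Cst7, Spp1 and Gpnmb had no UMI in any microglia.

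Of the markers of other cell types in microglia, those of oligodendrocytes had 5 UMIs in fresh and 12 in MeOH-fixed microglia (108 and 816 CPM, log2 ratio 2.92), among them 3 and 8 of Mbp, the gene of myelin basic protein. Astrocyte markers had 26 and 10 UMIs in fresh and MeOH-fixed microglia (561 and 680 CPM), OPC markers 1 and 3, neuroblast markers 4 and 1, neuron markers 8 and 1, and endothelial markers 2 and 1. The only neutrophil or lymphocyte marker listed in the counts had none.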
